A study of Mus musculus with 2 samples.

Results

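The chemokine and chemokine receptor genes of activated CD4+ T cells were followed on 2 microarrays, 1 per group. The group comprised the ligands Ccl3, Ccl4, Ccl5 and Xcl1 and the receptors Ccr4, Ccr6, Ccr8, Cxcr3 and Cxcr4, and a gene was included where a probe set had that gene as its single annotated symbol. Of the 9 genes, 8 were measured, each by 1 probe set, out of 11807 genes and 18003 such probe sets in all, and Cxcr4 was not analysed here.

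Both cultures began as naive CD4+ T cells isolated from the lymph nodes and spleen of C57BL/6J females and were activated for 60 h with antibodies to CD3 and CD28 coated on the plate. The untreated culture received no cytokine (0 ng/ml). The IL-27-treated culture received recombinant murine IL-27 at 25 ng/ml, and the comparison was made to find genes, above all transcription factors, that the cytokine induces. How many animals gave the cells is not given in the sources used here. With 1 array per group there was no replicate, no test was possible, and every difference below describes these 2 arrays and cannot tell an effect of IL-27 from variation between cultures or hybridizations.

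Chemokines are small secreted proteins that guide leukocytes through G protein-coupled receptors on the cell surface. Activated T cells secrete chemokines of the CC and XC classes that draw in and act on other leukocytes, and they change their own receptors as they differentiate. Cxcr3 is known from Th1 cells, Ccr4 and Ccr8 from Th2 and regulatory T cells, and Ccr6 from Th17 cells.

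The arrays are called the untreated array and the IL-27 array after their labels. A value is the probe set's intensity on a linear scale, and a difference is the log2 intensity of the IL-27 array minus that of the untreated array. Levels of different probe sets are not comparable with each other. The background floor was an intensity of 21.7, and a gene was called higher or lower when it exceeded the floor on at least 1 array and the arrays were at least 2-fold apart. Of the 7057 genes above the floor, 1.46% were called higher and 2.69% lower (4.15% in all), with a median difference of 0.02.

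Of 5 IL-27 response genes checked against the labels, 4 were at least 2-fold apart, against the direction expected from the labels. Socs3, which limits STAT3 signalling, stood at intensities of 1122 on the untreated array and 185.8 on the IL-27 array. Prdm1 and Il10 were also lower on the IL-27 array, with measured differences of -3.53 and -2.14. Both were below the floor there, so Prdm1 was at least 8.75-fold and Il10 at least 2.18-fold lower. Il2, which IL-27 is known to restrain, was higher on the IL-27 array by 2.45. Il27ra, the remaining gene checked, was within 2-fold, at 221.6 on the untreated array and 140.5 on the IL-27 array. Whether the arrays were exchanged was not tested. Directions below are those of the labels, and each would turn if the labels were exchanged. Of the markers of CD4+ T cells, Cd4, Cd3d, Cd3e and Cd3g were above the floor on both arrays, and the 10 measured T cell markers were all within 2-fold.

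Of the 8 measured genes, 6 exceeded the floor on at least 1 array, 3 ligands and 3 receptors. Ccr6 and Ccr8 were called higher and Ccl4 lower, whereas the other 3 were within 2-fold, beside 4.15% of all genes called in either direction. Ccr6 and Ccr8 passed the floor on the IL-27 array alone, and 17.3% of all such genes were called higher. The members were chosen with earlier results of these data known, so these counts are no test of the group. The 3 ligands above the floor all lay on the lower side, as did 47.8% of all genes, with a median difference of -0.48, and the receptors lay on both sides.

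**Figure D1:**
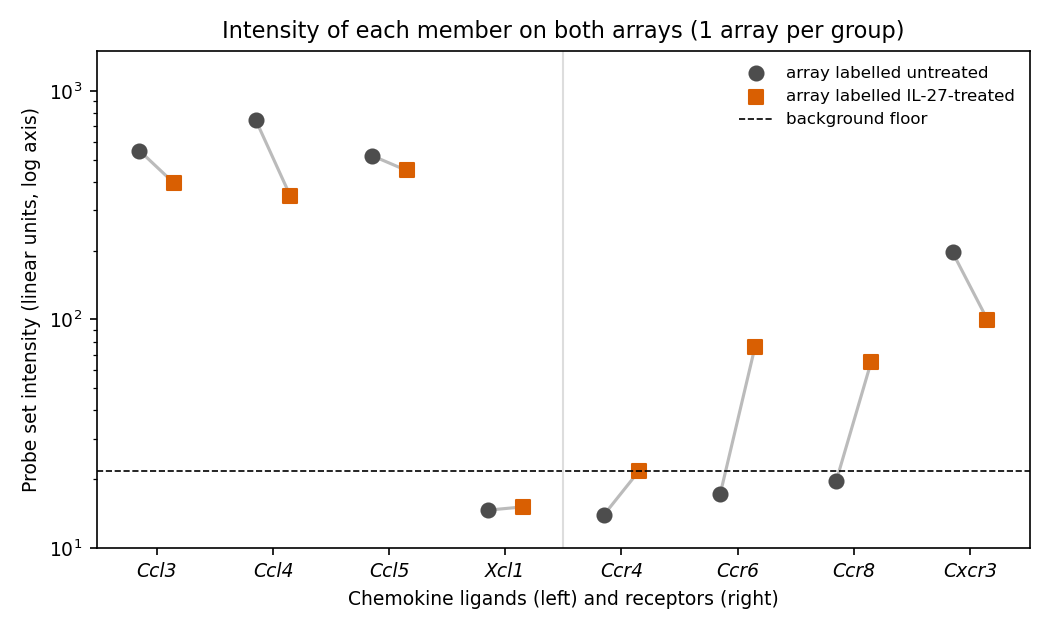
Intensity of each measured gene on the untreated array (circles) and the IL-27 array (squares), on a log axis, with the background floor of 21.7 dashed. Ccl3, Ccl4, Ccl5 and Cxcr3 are above the floor on both arrays and lower on the IL-27 array, Ccr6 and Ccr8 cross the floor upward, and Xcl1 and Ccr4 stay below it.

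Ccl4 (probe set 1421578_at), a CC chemokine that attracts monocytes and T cells, had intensities of 748.9 on the untreated array and 346.4 on the IL-27 array. The level was thus 2.16-fold lower on the IL-27 array, a difference of -1.11, and 151 of the 7057 genes had a more negative one. Among the 6745 genes above the floor on both arrays, 2.19% were called lower.

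Ccl3 (probe set 1419561_at), a CC chemokine that binds Ccr1, had intensities of 548.3 and 393.8 in the same order. Its difference of -0.48 had the sign of that of Ccl4 and was short of the 2-fold call. Ccl3 and Ccl4 are neighbours on chromosome 11 in the RefSeq annotation, with 0 other protein-coding genes between them.

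Ccl5 (probe set 1418126_at), a CC chemokine of effector T cells encoded on chromosome 11, stood at 521.7 and 448.9. That is a difference of -0.22, close to the lower quartile of -0.21 over all genes above the floor, so Ccl5 was hardly set apart from the bulk of genes. Xcl1 (probe set 1419412_at), the ligand of Xcr1 on cross-presenting dendritic cells, was below the floor on both arrays, at 14.6 and 15.1, and no fold is given.

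Ccr6 (probe set 1450357_a_at), the receptor for Ccl20, had an intensity of 17.2 on the untreated array, below the floor, and 76.0 on the IL-27 array. It was at least 3.50-fold higher, or at least 1.81 on the log2 scale, taking the floor as the lower value.

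Ccr8 (probe set 1422291_at), the receptor for Ccl1, differed in the same direction, with 19.7, also below the floor, on the untreated array and 65.2 on the IL-27 array. It was at least 3.01-fold higher, or at least 1.59 on the log2 scale. Both receptors passed the floor only through the array on which they were high, and of the 127 genes above it on the IL-27 array alone 17.3% were called higher. In the turned direction, 22.7% of the 185 genes above it on the untreated array alone were called lower.

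Cxcr3 (probe set 1449925_at), the receptor for the interferon-inducible chemokines Cxcl9, Cxcl10 and Cxcl11, ran in the opposite direction. Its intensity was 196.8 on the untreated array and 99.8 on the IL-27 array, both above the floor. The difference of -0.98, or 1.97-fold, fell just inside the 2-fold limit and was -1.01 after loess normalization, so its call turned on the scaling.

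Ccr4 (probe set 1421655_a_at), the receptor for Ccl17 and Ccl22, had intensities of 14.0 and 21.7. The second value was 0.999 of the floor, so Ccr4 counted as below it on both arrays and has no fold.

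Promoter sequence is shown for Ccr6 and Ccr8, the receptors called higher, for Cxcr3, the receptor that differed the other way, and for Ccl3 among the ligands. The sequences come from a RefSeq (GRCm38.p6) promoter set, which held 7 windows for 6 of the 8 measured genes. It held none for Ccl4, the ligand called lower, or for Ccl5. Each runs 5′ to 3′ over the 250 bases before an annotated transcript start, and capitals mark matches to any of 6 motifs on either strand. The motifs were TTCNNNGAA (STAT), TGANTCA (AP-1), GGAAA (NFAT core), CANNTG (E-box), the interferon response motif and the kappaB motif.
Ccr6, chr17:8235793-8236042, plus strand: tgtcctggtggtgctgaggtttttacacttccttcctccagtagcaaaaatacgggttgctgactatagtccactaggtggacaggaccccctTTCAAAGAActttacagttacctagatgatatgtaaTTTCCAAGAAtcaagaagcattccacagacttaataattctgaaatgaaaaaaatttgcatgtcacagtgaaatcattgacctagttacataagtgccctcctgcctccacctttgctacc
Ccr8, chr9:120091883-120092132, plus strand: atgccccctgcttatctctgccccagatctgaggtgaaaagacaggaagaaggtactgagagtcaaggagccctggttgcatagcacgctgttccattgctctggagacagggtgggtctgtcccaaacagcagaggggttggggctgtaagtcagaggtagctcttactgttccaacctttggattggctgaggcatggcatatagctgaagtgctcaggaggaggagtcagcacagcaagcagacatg
Cxcr3, chrX:101734148-101734397, minus strand: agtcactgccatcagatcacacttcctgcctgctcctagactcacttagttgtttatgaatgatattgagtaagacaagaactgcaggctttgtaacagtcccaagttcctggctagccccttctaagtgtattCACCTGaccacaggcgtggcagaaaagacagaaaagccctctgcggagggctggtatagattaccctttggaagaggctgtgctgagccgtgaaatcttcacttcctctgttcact
Ccl3, chr11:83649379-83649628, minus strand: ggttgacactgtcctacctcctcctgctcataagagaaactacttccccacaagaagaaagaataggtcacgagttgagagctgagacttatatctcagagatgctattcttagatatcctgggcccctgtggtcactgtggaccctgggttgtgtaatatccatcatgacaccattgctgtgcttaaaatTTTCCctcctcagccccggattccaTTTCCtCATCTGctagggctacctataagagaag

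The Ccr6 window held 2 STAT motifs, TTCAAAGAA and TTCCAAGAA, the latter overlapping an NFAT core, and 7.02% of the 32851 promoter windows in the table held at least 1 STAT motif. At a further annotated start of Ccr6 (window chr17:8242276-8242525) 0 STAT motifs were found, and an overlapping pair of kappaB matches was, a motif held by 7.25% of windows, besides 1 NFAT core and 2 E-boxes. The Ccr8 window held 0 of the 6 motifs. The Cxcr3 window held 1 E-box, as did that of Ccl3 beside 2 NFAT cores, and 66.2% and 55.6% of all windows held those motifs. The Ccr4 window held 1 AP-1 motif (6.75% of windows), 1 NFAT core and 2 E-boxes. Xcl1 had 1 NFAT core, and the interferon response motif (2.98% of windows) was found in 0 of the 7 windows. These matches describe letters and not binding.

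**Figure D2:**
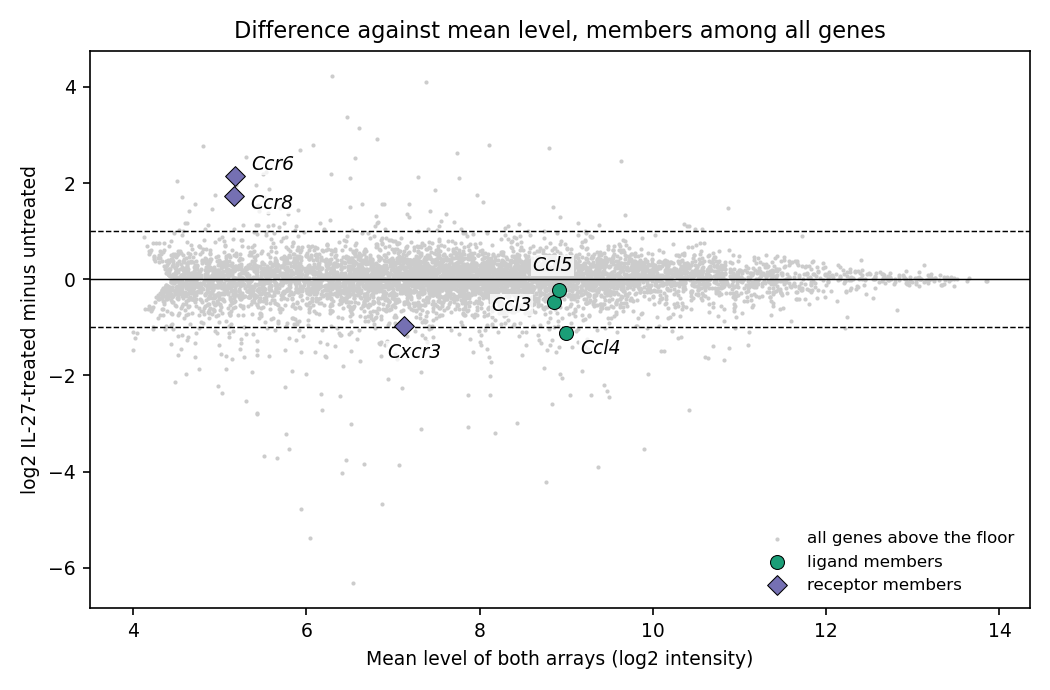
Difference (log2 IL-27-treated minus untreated) against the mean log2 intensity of both arrays for all 7057 genes above the floor (grey), with ligands as circles, receptors as diamonds and dashed lines at 2-fold. Ccr6 and Ccr8 lie above the upper line, plotted at their measured values although the untreated array was below the floor, and Ccl4 (-1.11) lies below the lower line.

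The only internal measure of error came from other genes with several probe sets, since each chemokine gene had 1. Across 2340 genes with at least 2 probe sets above the floor, the differences given by the 2 brightest were apart by a median of 0.16, with a 90th percentile of 0.45. In absolute size the differences of Ccl4 and Cxcr3 were larger than that 90th percentile, that of Ccl3 was just above it, and that of Ccl5 was nearer the median gap. Ccr6 and Ccr8 were not set against this scatter, since their untreated values were below the floor. This scatter covers probe-level error and not variation between cultures.

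The transcription factors tied to these receptors are background for the same arrays. Gata3, the regulator of Th2 cells, had intensities of 36.5 and 166.4, a difference of 2.19, higher on the same array as Ccr8. Tbx21, which encodes T-bet, an activator of Cxcr3, differed by -0.23, less than Cxcr3 itself. Rora, a factor of Th17 cells, differed by -1.51, opposite in sign to Ccr6.

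Few other chemokine genes exceeded the floor. Of 32 further chemokines measured, 5 exceeded the floor on at least 1 array and 0 were 2-fold apart, with a median difference of -0.08. Of the 43 genes of other tissues used to set the floor, 4 exceeded it on at least 1 array. Cklf, a chemokine-like factor, stood at 291.4 and 244.2 by its brightest probe set, and Ccl25 at 37.7 and 35.7. Ccl27a stood at 40.4 and 40.0 by its brighter probe set and at 35.2 and 19.5 by the other, so its probe sets, both of types that can read related transcripts, disagreed.

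The ligands of the receptors above were dim. Ccl20, the ligand of Ccr6, was at 25.8 on the untreated array and at 20.8, below the floor, on the other. Ccl17 was below the floor at 19.0 and just above it at 23.1. Ccl1, Ccl22, Cxcl9 and Cxcl10, named here because they are ligands of these receptors, were below it on both arrays.

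Of 15 further chemokine receptors measured, 2 exceeded the floor, and 0 were 2-fold apart, with a median difference of 0.002. Cxcr5, the receptor that leads T cells to B cell follicles, was at 45.7 and 44.6, a difference of -0.04 that turned to 0.001 on subtraction of the array medians. Ccrl2, an atypical receptor, was at 50.0 and 51.3, a difference of 0.04. Ccr2, Ccr9, Ccr10 and Cxcr6 were among the 13 below the floor on both arrays, and Ccr7 was not analysed here.

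**Figure D3:**
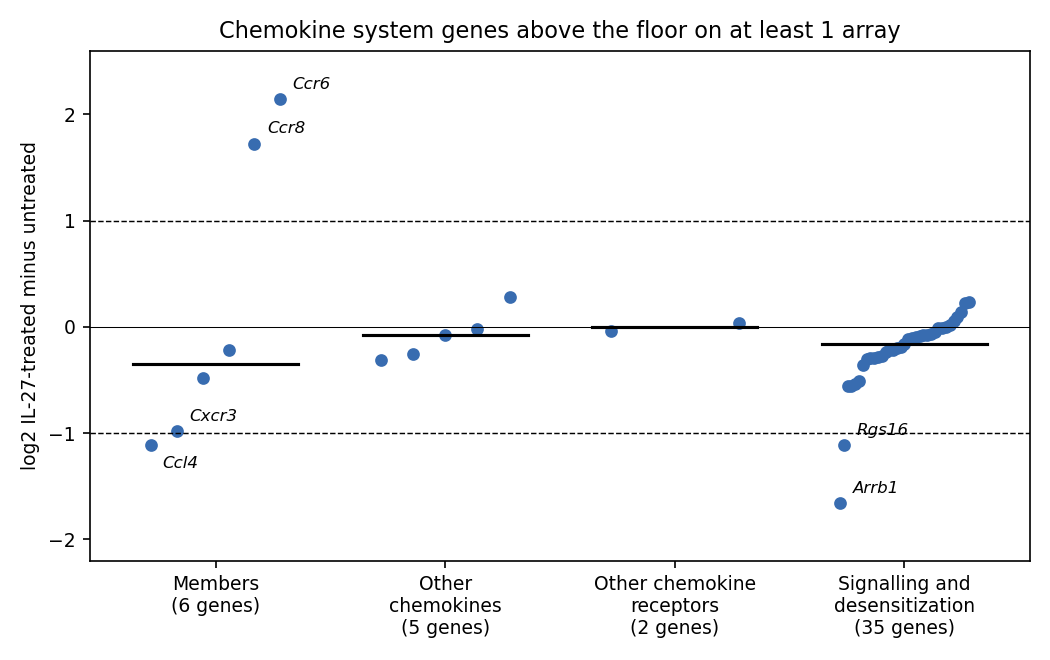
Difference (log2 IL-27-treated minus untreated) of each gene above the floor in 4 sets, with 1 point per gene, a bar at the set's median and dashed lines at 2-fold. Ccr6 and Ccr8 (at measured values), Ccl4, Arrb1 and Rgs16 lie beyond the lines, and the 5 other chemokines and 2 other receptors lie between -0.31 and 0.28.

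Genes that carry or end the chemokine signal were mostly within 2-fold. Of 38 measured, 35 exceeded the floor, 0 were called higher and 2 lower, beside the background of 2.69% lower, and 29 of the 35 (82.9%) had a difference below 0, against 47.8% of all genes. The count was 26 with array medians subtracted, against 43.3% of all genes, and 30 with loess, against 51.5%. The list's median was -0.16 against 0.02 over all genes. Arrb1, a beta-arrestin that uncouples and internalizes active receptors, had intensities of 236.0 and 74.6, a difference of -1.66. Rgs16, which speeds the shut-off of G proteins, stood at 122.7 and 56.6, and its 2 probe sets gave differences of -1.12 and -1.22.

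Other cell types are relevant because NK cells and CD8+ T cells also make Ccl3, Ccl4, Ccl5 and Xcl1. Of the 7 NK cell genes measured, 4 exceeded the floor. Klrd1 was at 114.2 and 16.4, Klrk1 at 68.2 and 14.7 and Gzma at 34.3 and 15.2. All 3 were lower on the IL-27 array, where they were below the floor. Of the 185 genes above the floor on the untreated array alone, 22.7% were called lower. Eomes was at 32.8 and 290.4, higher on the IL-27 array. The summed intensity of the list was 283.5 and 372.5, and 250.7 and 82.1 without Eomes. Such a sum is led by its brightest probe sets and takes in dim ones, so the sums here and below give a range and no order of cell types. The defining NK markers Ncr1 and Klrb1c were below the floor on both arrays. The part of such cells in the chemokine values was not tested, and in bulk RNA fewer cells of a type and less RNA per cell cannot be told apart.

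For CD8+ T cells, Cd8a was below the floor on both arrays while Cd8b1 was at 119.3 and 176.5, and the 2 genes summed to 136.5 and 196.0. B cell genes exceeded the floor in 1 of 8 cases, with summed intensities of 112.5 and 120.4. Granulocyte and mast cell genes did so in 2 of 9 cases, with sums of 116.5 and 123.6. Of 12 macrophage and monocyte genes, 3 exceeded it and the list summed to 3670 and 694.4, most of it Ly6c1, which activated T cells also express, with 188.0 and 161.6 without it. Among the others the macrophage markers did not differ alike. Cd68 was at 54.9 and 27.5, a difference of -0.99, within 2-fold and lower on the IL-27 array. Csf1r was at 26.2 and 24.4, a difference of -0.11, and Adgre1 was below the floor on both arrays. Of 8 dendritic cell genes, 2 exceeded the floor, Cd74 at 58.4 and 171.8 and H2-Ab1 at 312.5 and 81.6, and Itgax was below it on both arrays. The part of these cells in the chemokine values was not tested.

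**Figure D4:**
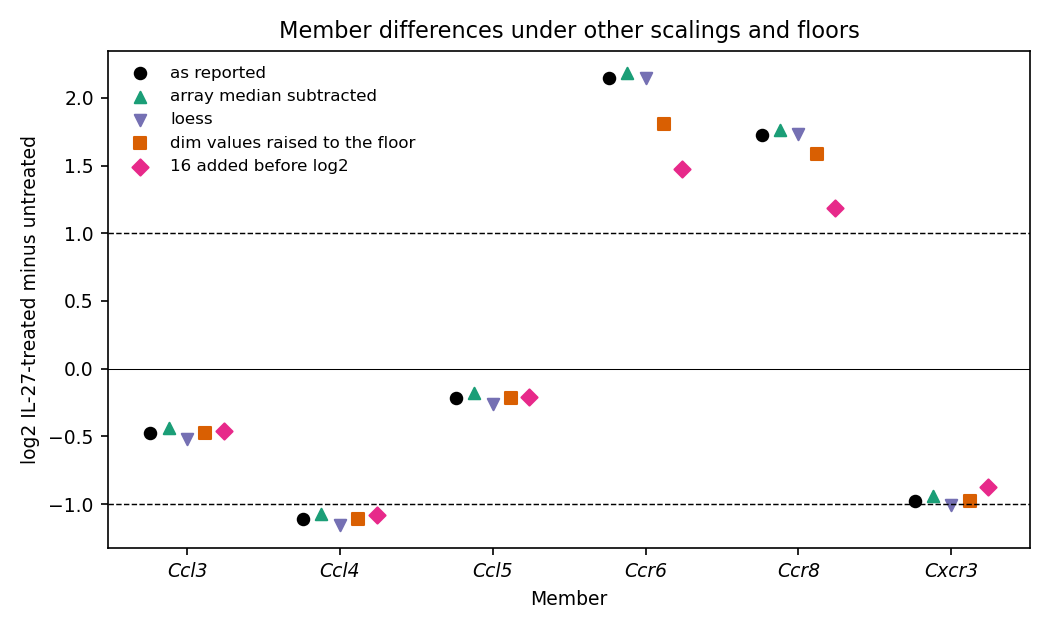
Difference (log2 IL-27-treated minus untreated) of the 6 genes above the floor, as reported and under 4 other ways of scaling or flooring the values, with dashed lines at 2-fold. All 6 keep their sign in these settings, Ccr6 and Ccr8 shrink to 1.47 and 1.19 when 16 is added before log2, and Cxcr3 passes the 2-fold line only with loess.

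Over these settings Ccl4 ranged from -1.16 to -1.08, Ccl3 from -0.52 to -0.44 and Ccl5 from -0.26 to -0.18. The calls of Ccl4, Ccr6 and Ccr8 held in each of them.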

How the data were processed

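Expression was measured on 2 Affymetrix arrays of total RNA, 1 for the untreated and 1 for the IL-27-treated culture, from biotin-labelled RNA made with a 3' kit from 100 ng, per the labels' protocols. The deposited table holds 1 linear intensity per probe set and array, made with RMA per the submitters' processing notes. No version or setting of RMA is stated in the sources used here. RMA makes the distributions of arrays alike and compresses dim differences. Median intensities were 33.3 and 32.4, and precision is limited by there being 1 array per group.

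Of 22716 probe sets, 18003 had 1 gene symbol, 287 several and 4426 none listed, and 17977 of the first were matched by Entrez identifier to RefSeq names (GRCm38.p6). Intensities were converted to log2 in Python 3.11.15 without further normalization. A gene was represented by its probe set with the highest mean level. The floor was the 95th percentile of the mean log2 levels over both arrays of 43 genes of other tissues, from a list of 49. Of these 43, 4 exceeded it on at least 1 array and 1 was called lower, with a difference of -1.10. Named were all measured chemokine members, the other chemokines and receptors above the floor, the signalling genes at least 2-fold apart and defining cell type markers. The genes of IL-27 response, the lineage factors and the dim ligands and receptors named lie outside that rule. Members and lists were chosen with earlier results of these data known. Alternatives were the choice of probe set, scaling between arrays, the floor, a pseudocount of 16 and a 1.5-fold limit. The steps were tested on simulated data with planted differences and random noise but no variation between cultures, which checks the steps and not the calls. No gene was named for a pattern like a member's, since 2 arrays give 1 difference per gene.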

Additional observations from a re-analysis of the deposited data

How the results depend on the processing

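The 3 calls among the chemokine genes were kept when probe sets were averaged, array medians subtracted, loess applied, the floor removed or raised, dim values set to the floor or 16 added before log2. Averaging could not move the differences of these genes, as each had 1 probe set. Removing the floor could not undo a call, and the raised floor of 25.9 lay below the brighter value of each called gene. With loess Cxcr3 passed 2-fold, at -1.01, and at a 1.5-fold limit it was called too, which made 4 calls. Ccr6 and Ccr4 have no value when probe sets with _s_, _x_ or _a_ in the name are left out, because each was read by 1 of that type, which left 2 calls. The count of genes 2-fold apart was 293, and 867 at the 1.5-fold limit. Of the 2 signalling genes called, 1 was left with the pseudocount, where Rgs16 differed by -0.93, and 1 when the named probe set types were left out, since Rgs16 then has no value. The cause of the change with loess was not tested. No replicate could be left out, and no paired analysis was possible because each group has 1 array. Signal over background limits Xcl1 and Ccr4, below the floor on both arrays (Ccr4 exceeded it with medians subtracted or loess, uncalled at 0.67 and 0.66), and makes the folds of Ccr6 and Ccr8 lower bounds.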
